A study of Mus musculus with 6 samples.

Results

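The genes described are the constant regions of the mouse immunoglobulin heavy chains (*Ighm*, *Ighd*, *Ighg1*, *Ighg2b*, *Ighg2c*, *Ighg3*, *Igha* and *Ighe*), the constant region of the kappa light chain (*Igkc*) and the J chain gene (*Jchain*). They were found by name in the deposited table. All 10 were present, each in 1 row and without a numbered copy, among 49585 rows. *Ighe* was listed at 0 in every library, and the other 9 passed the filter on low values. RNA was sequenced from bone marrow monocytes of 3 Syk+/+ and 3 Sykdel/del samples, and both genotypes carried Rosa26CreER(T2)+/+, a tamoxifen-inducible Cre that is not restricted to a cell type. According to the labels, the donor mice of both genotypes had been kept on high-fat diet for 8 weeks. The methods describe C57BL/6J mice, systemic deletion of *Syk* by oral tamoxifen, the diet from 8 weeks of age, male mice for in vivo work and a kit for monocyte isolation, and whether Syk+/+ mice received tamoxifen is not stated. Deletion was therefore not limited to monocytes. No source says that each library came from a separate mouse, and if they did not, the p-values measure only a technical spread.

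An antibody heavy chain gene joins a rearranged variable exon to a constant region, and the constant region sets the isotype. B cells first use *Ighm* and *Ighd*, which lie next to the variable segments, and class switching brings a downstream constant gene (IgG, IgE or IgA) into their place. Plasma cells, many of which live in the bone marrow, secrete the product in large amounts, and the J chain links the units of polymeric IgM and IgA. Monocytes bind antibody through Fc receptors.

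The reads assigned to genes, recovered from the table, ranged from 4168626 (Sykdel/del replicate 3) to 7071823 (Syk+/+ replicate 3). A normalized read count is that number of reads times a factor that is the same for every gene of a library, and a single read was worth 0.923 to 1.56 normalized counts. *Syk* was counted at 4463 to 5527 in Syk+/+ and 4712 to 5094 in the libraries labelled Sykdel/del, so this row does not check the genotype. Replicates of a genotype differed by 2.39 to 11.3 times the sampling noise (a chi-square divided by its degrees of freedom, from genes with at least 10 reads in a pair). Sykdel/del replicate 1 stood furthest from the others of its genotype, at 9.998 and 11.3. Log2 fold changes of *Ighg2b*, *Ighg2c*, *Igha* and *Jchain* are given with and without it. Isotype shares, marker genes, and members counted by unadjusted p or by overlap are given only with it.

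All 8 heavy chain genes lie on the minus strand of chromosome 12 (GRCm38, GENCODE M21). *Ighm* spans 113418558 to 113422730. In the direction of transcription it is followed by *Ighd*, *Ighg3*, *Ighg1*, *Ighg2b* (113302965 to 113307933), *Ighg2c* (113285325 to 113288932), *Ighe* and *Igha* (113254830 to 113260236). *Igkc* is a single exon on the plus strand of chromosome 6 from 70726435 to 70726966. *Jchain* is on the minus strand of chromosome 5 from 88519809 to 88527891.

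*Ighm*, which encodes the mu chain of IgM, was the most abundant member in Syk+/+ and did not differ between the genotypes beyond the spread. Its normalized read count was 2183.5, 2437.9 and 2504.3 in Syk+/+ replicates 1 to 3 and 2065.0, 2302.5 and 2384.6 in Sykdel/del replicates 1 to 3. The groups overlapped, and replicate 1 was the lowest in both. The log2 fold change (Sykdel/del minus Syk+/+, on the log2(x + 1) scale throughout) was -0.08, with a 95% interval from -0.28 to 0.12 and an adjusted p of 1 from limma. *Ighm* held 1528 to 2714 reads per library.

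*Ighd*, which encodes the delta chain that naive B cells carry together with IgM, was close to the floor. It was at 6.5, 7.7 and 14.8 in Syk+/+ and at 15.5, 9.4 and 14.0 in Sykdel/del. These values overlap. The 95% interval of its log2 fold change ran from -0.41 to 1.29 around 0.44. *Ighe*, the constant gene of IgE, had no read in any library, where a count of 0 allows up to 3 reads, or 2.77 to 4.68 normalized counts (counting error only).

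**Figure D1:**
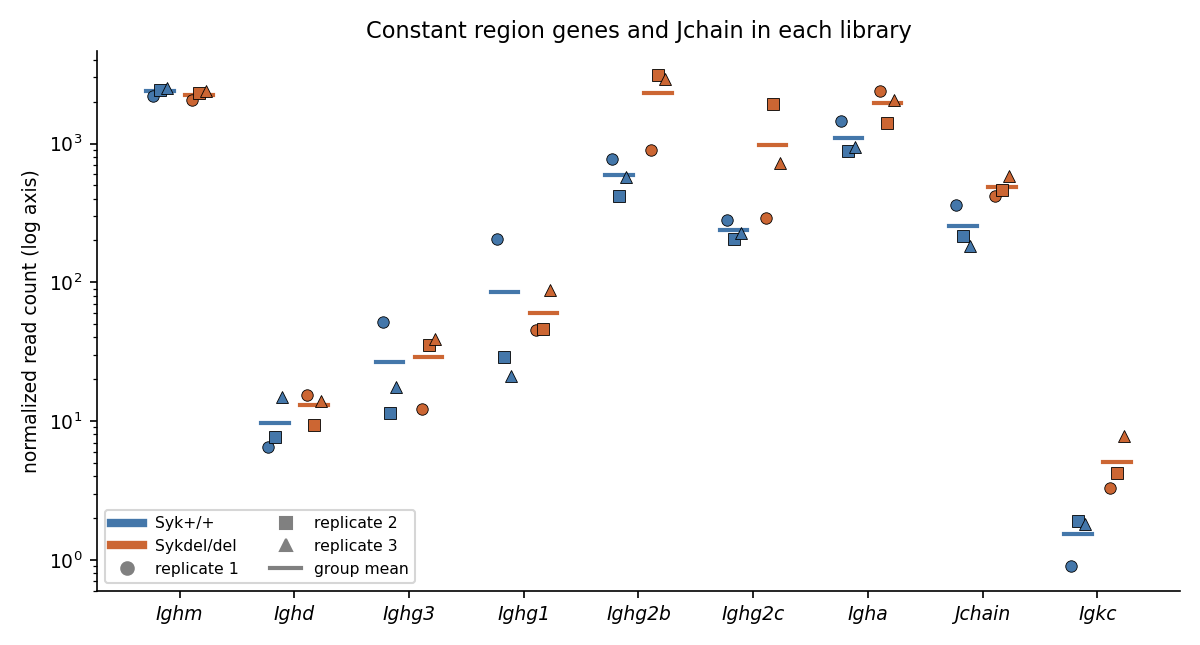
Normalized read count (log axis) of the 9 members with reads, in each library of Syk+/+ (blue) and Sykdel/del (orange), with the group mean as a bar and the replicate number as the symbol. *Ighm* lay between 2065.0 and 2504.3 in all 6 libraries, while *Ighg2b*, *Ighg2c*, *Jchain* and *Igkc* were higher in each Sykdel/del library than in every Syk+/+ library. *Igkc* held only 1 to 5 reads per library.

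The IgG constant genes differ in the length and the cysteines of the hinge, the flexible stretch between the Fab and Fc parts, whose cysteines form the disulfide bonds between heavy chains. The hinge exons (exon 2 of the secreted transcripts, GENCODE M21, minus strand of chromosome 12) are shown to make plain how far apart the 4 IgG rows are. Capitals mark the cysteine codons in the reading frame.
Ighg3 hinge, 113360529 to 113360576: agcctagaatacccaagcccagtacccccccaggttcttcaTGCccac
Ighg1 hinge, 113329844 to 113329882: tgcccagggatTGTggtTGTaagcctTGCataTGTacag
Ighg2b hinge, 113307261 to 113307326: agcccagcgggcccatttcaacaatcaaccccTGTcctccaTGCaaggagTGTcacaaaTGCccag
Ighg2c hinge, 113288263 to 113288325: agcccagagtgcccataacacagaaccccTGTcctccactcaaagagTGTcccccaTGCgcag
The exons hold 1, 4, 4 and 3 cysteine codons in this order. Outside the hinge the genes are closer. *Ighg2b* and *Ighg2c* have identical bases at 94.2% of the 330 positions of the CH2 exon and at 87.6% of the 291 positions of the CH1 exon. Of the distinct 50-base windows in the annotated transcripts of *Ighg2c*, 5.49% also occur in *Ighg2b*, and of those of *Ighg2b*, 4.15% occur in another IgG gene. *Ighm*, *Ighd*, *Igha*, *Ighe*, *Igkc* and *Jchain* shared no such window with another member. How the counting treated reads that match several genes is not given in the sources used here, so small transfers between *Ighg2b* and *Ighg2c* cannot be told apart from their own reads.

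*Ighg2b* and *Ighg2c*, the constant genes of IgG2b and IgG2c (the C57BL/6 counterpart of IgG2a), had the highest values of the IgG group and the largest log2 fold changes of the family. *Ighg2b* was at 779.0, 418.6 and 570.2 in Syk+/+ and at 901.2, 3101.6 and 2915.2 in Sykdel/del. The groups did not overlap, but Sykdel/del replicate 1 was far nearer to Syk+/+ than to the other two of its genotype. The mean was 589.3 ± 181.0 (SD, n = 3) in Syk+/+ and 2306 ± 1220 (SD, n = 3) in Sykdel/del, a ratio of means of 3.91. The log2 fold change was 1.82 (standard error 0.36, interval 1.04 to 2.60), and the adjusted p of 0.058 from limma missed the threshold of 0.05. Without Sykdel/del replicate 1 the log2 fold change was 2.40, with an adjusted p of 1.48e-05 from limma.

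*Ighg2c* was at 280.5, 203.6 and 225.1 in Syk+/+ and at 288.2, 1913.3 and 717.9 in Sykdel/del. Sykdel/del replicate 1 exceeded Syk+/+ replicate 1 by less than 10 normalized counts, so the separation of the groups is narrow, and replicate 2 was the highest by a wide margin. The log2 fold change was 1.64 (standard error 0.45, interval 0.67 to 2.62, adjusted p = 0.27 from limma). It was 2.32 without Sykdel/del replicate 1 (adjusted p = 0.0021 from limma) and 0.95 without Sykdel/del replicate 2 (adjusted p = 0.50 from limma).

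*Ighg1* and *Ighg3* showed no such pattern. *Ighg1*, the constant gene of IgG1, was at 206.7, 28.8 and 21.2 in Syk+/+ and at 45.4, 45.9 and 87.4 in Sykdel/del, so the single highest library was Syk+/+ replicate 1. *Ighg3*, the constant gene of IgG3, was at 51.4, 11.5 and 17.5 in Syk+/+ and at 12.2, 35.5 and 39.0 in Sykdel/del, again with Syk+/+ replicate 1 at the top. Both groups overlapped for both genes. Their log2 fold changes of 0.16 and 0.22 had intervals from -1.16 to 1.49 and from -0.88 to 1.33, which do not exclude a change of 1 in either direction for *Ighg1*. Without Syk+/+ replicate 1 they were 1.17 and 0.82, and their signs turned when some other libraries were left out.

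*Igha*, the constant gene of IgA, was at 1461.6, 878.6 and 938.4 in Syk+/+ and at 2405.3, 1411.5 and 2063.1 in Sykdel/del. The groups overlapped by a small margin, with Syk+/+ replicate 1 above Sykdel/del replicate 2. Here Sykdel/del replicate 1, the lowest of its genotype for *Ighg2b* and *Ighg2c*, was the highest library. The mean was 1093 ± 321 (SD, n = 3) in Syk+/+ and 1960 ± 505 (SD, n = 3) in Sykdel/del, a ratio of 1.79. The log2 fold change was 0.85 (standard error 0.20, interval 0.42 to 1.27, adjusted p = 0.13 from limma). Without Sykdel/del replicate 1 it was 0.68 (adjusted p = 0.17 from limma).

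*Jchain* joins the units of IgM pentamers and IgA dimers through the tail of the secreted heavy chains. The last coding bases of the secreted *Ighm* and *Igha* transcripts (minus strand of chromosome 12, just before the stop codon) are shown because they carry the cysteine that links to the J chain or to another heavy chain. Capitals mark its codon.
Ighm tail, 113420870 to 113420923: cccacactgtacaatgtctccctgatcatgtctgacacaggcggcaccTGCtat
Igha tail, 113258771 to 113258824: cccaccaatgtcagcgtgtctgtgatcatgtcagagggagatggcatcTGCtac
The table gives 1 value per gene, so secreted and membrane transcripts of these genes were not counted apart. *Jchain* was at 359.1, 217.0 and 183.6 in Syk+/+ and at 420.1, 460.1 and 579.0 in Sykdel/del. Every Sykdel/del library was above every Syk+/+ library, and Syk+/+ replicate 1 was again the highest of its genotype. The mean was 253.2 ± 93.2 (SD, n = 3) in Syk+/+ and 486.4 ± 82.7 (SD, n = 3) in Sykdel/del, a ratio of 1.92. The log2 fold change was 0.99 (standard error 0.20, interval 0.55 to 1.42, adjusted p = 0.063 from limma). It passed the threshold without Syk+/+ replicate 1 (1.27, adjusted p = 0.025 from limma) and without Sykdel/del replicate 1 (1.08, adjusted p = 0.028 from limma).

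*Igkc* encodes the constant region of the kappa light chain, which most mouse antibodies carry, but its row held 1 to 5 reads per library. It was at 0.9, 1.9 and 1.8 in Syk+/+ and at 3.3, 4.2 and 7.8 in Sykdel/del, and its log2 fold change of 1.22 had an interval from 0.12 to 2.33 (adjusted p = 0.84 from limma). The groups did not overlap. The 160 kappa variable rows summed to 403.5, 305.8 and 259.9 in Syk+/+ and to 679.0, 1304.7 and 1326.3 in Sykdel/del, far more than the constant region to which such segments are spliced. In GENCODE M21 the *Igkc* exon lies inside the locus of *Gm30211*, a gene that has no row in the table. The *Igkc* row was therefore not read as the level of kappa chains, and how the overlap was counted was not tested. Of the lambda constant genes, *Iglc2* was at 24.3, 11.5 and 10.2 in Syk+/+ and at 17.7, 33.4 and 51.5 in Sykdel/del (log2 fold change 1.08, adjusted p = 0.74 from limma), and *Iglc1*, *Iglc3* and *Iglc4* were listed at 0.

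Over the whole family no member passed the adjusted p of 0.05 by limma, in either direction. Of the 14023 tested rows, 0.0214% were called higher and 0.349% lower in Sykdel/del. Among the 3 rows called higher, 2 were immunoglobulin rows that are not members. The tested rows held 138 immunoglobulin rows, members included. The authors' own list of changed genes leaves out immunoglobulin genes. At an unadjusted p under 0.05, 5 of the 9 tested members were higher (*Ighg2b*, *Ighg2c*, *Igha*, *Jchain* and *Igkc*) and 0 were lower, against 1.94% and 3.32% of all tested rows. By limma-voom on the recovered reads 0 members passed the adjusted threshold. In 4 of the 9 (*Ighg2b*, *Ighg2c*, *Jchain* and *Igkc*) the libraries of the genotypes did not overlap with Sykdel/del higher, against 4.94% of all tested rows, and in 0 with Sykdel/del lower, against 5.19%. The median log2 fold change of the 9 members was 0.85, and that of all tested rows was 0.00097. Members share the same libraries and some share sequence, so these counts describe the family and are not independent tests. The counts of 5 and 4 both include *Igkc*, whose row held 1 to 5 reads per library and was not read as a level.

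**Figure D2:**
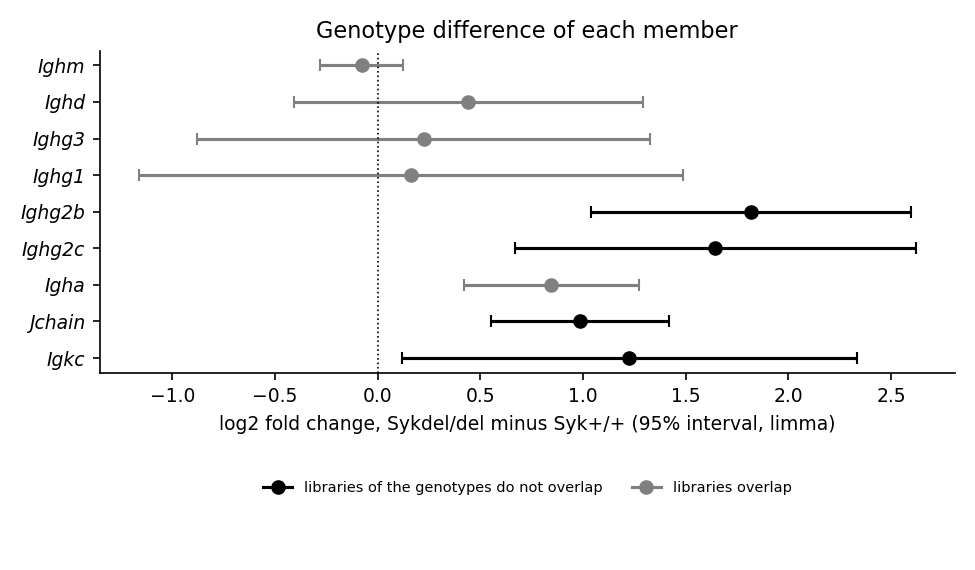
Log2 fold change of each tested member (Sykdel/del minus Syk+/+, horizontal axis) with its 95% interval from limma, black where the libraries of the genotypes did not overlap and grey where they did. The intervals of *Ighg2b*, *Ighg2c*, *Igha*, *Jchain* and *Igkc* lie above 0, and that of *Igkc* rests on 1 to 5 reads per library. The interval of *Ighm* is the narrowest (-0.28 to 0.12), and those of *Ighd*, *Ighg3* and *Ighg1* span 0 widely.

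Calls depended on single libraries. When Sykdel/del replicate 1 was left out, *Ighg2b*, *Ighg2c* and *Jchain* passed the threshold, and when Syk+/+ replicate 1 was left out, *Jchain* did. With any of the other 4 libraries left out no member passed. The log2 fold changes of *Ighg2b*, *Ighg2c*, *Igha* and *Jchain* stayed above 0 in each of the 17 alternative settings.

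**Figure D3:**
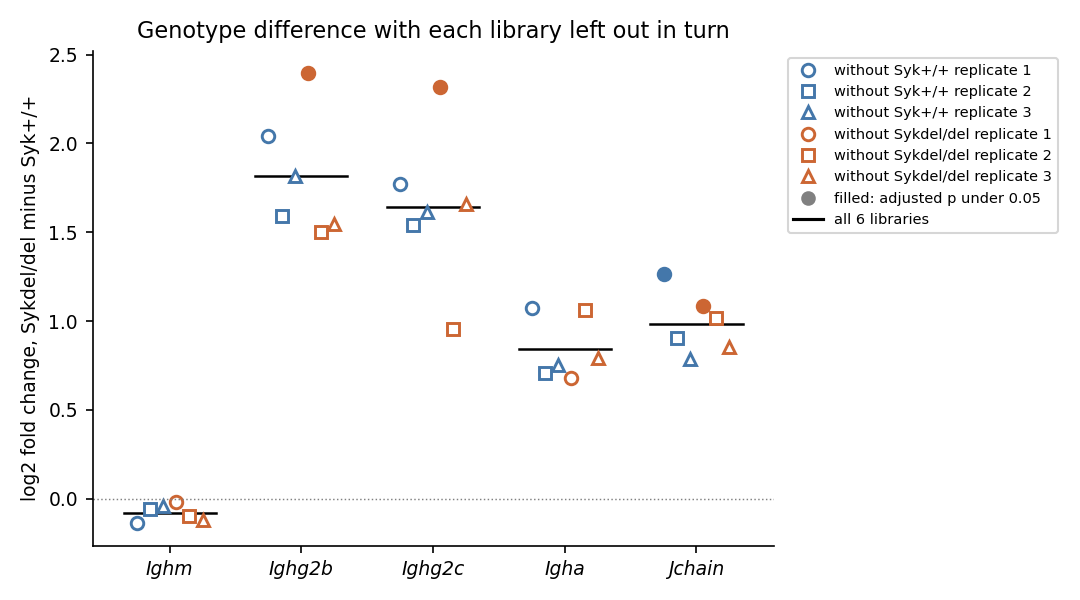
Log2 fold change (Sykdel/del minus Syk+/+) of *Ighm*, *Ighg2b*, *Ighg2c*, *Igha* and *Jchain* with 1 library left out at a time; the black line is the value over all 6 libraries, the colour and symbol name the library left out, and a filled symbol has an adjusted p under 0.05 from limma. *Ighg2b* ranged from 1.504 to 2.40, *Ighg2c* from 0.95 to 2.32, *Igha* from 0.68 to 1.07, *Jchain* from 0.79 to 1.27 and *Ighm* from -0.14 to -0.02.

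Ratios within a library do not depend on its scaling. The planned base, *Igkc*, had too few reads to serve, and none of the 8 ratios to it passed (adjusted p = 0.80 for each by a two-sided exact permutation test over samples, Benjamini-Hochberg over 8 ratios). *Ighm* was taken as the base after the values had been seen. It differed little between the genotypes (log2 fold change -0.08), so ratios to it largely restate the members' own log2 fold changes and are not separate evidence. On the log2 scale the ratio of *Ighg2b* to *Ighm* was -2.05 ± 0.53 (SD, n = 3) in Syk+/+ and -0.16 ± 0.90 (SD, n = 3) in Sykdel/del. The *Ighg2b* row was above the *Ighm* row in Sykdel/del replicates 2 and 3 and below it in replicate 1 and in every Syk+/+ library. The difference of 1.89 had an exact permutation p of 0.1, the smallest that 3 against 3 can give, and an adjusted p of 0.2 over 8 ratios. The ratios of *Ighg2c* (difference 1.72), *Jchain* (1.06) and *Igkc* (1.30) to *Ighm* likewise did not overlap between the genotypes (exact p = 0.1 and adjusted p = 0.2 each). The ratio of *Igha* to *Ighm* differed by 0.92 (exact p = 0.2, adjusted p = 0.32).

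To compare levels between the genes, normalized counts were divided by the length of the annotated exons in kilobases. The order was the same at the top in both genotypes only for *Ighm*, at 1259 ± 90 per kb in Syk+/+ and 1193 ± 88 per kb in Sykdel/del (SD, n = 3). In Syk+/+ it was followed by *Igha* at 409.6, *Ighg2b* at 220.0 and *Ighg2c* at 178.3 per kb, and the ranges of the last 2 overlapped (156.3 to 290.9 and 153.5 to 211.5). *Jchain* followed at 100.6 per kb, then *Ighg1* at 33.0, *Ighg3* at 10.7, *Ighd* at 5.09 and *Igkc* at 2.88. From *Jchain* down to *Ighd*, the ranges of neighbours in this order overlapped in Syk+/+, while those of *Ighg2c* and *Jchain* did not. In Sykdel/del *Ighg2b* stood at 861.1, *Igha* at 734.6 and *Ighg2c* at 733.9 per kb, and the ranges of these overlapped each other. The range of *Ighm* in Sykdel/del (1095 to 1264 per kb) also overlapped those of *Ighg2b*, which reached 1158, and *Ighg2c*, which reached 1443, but not that of *Igha*. *Jchain* followed at 193.2 per kb, and below it *Ighg1* at 23.0, *Ighg3* at 11.5, *Igkc* at 9.59 and *Ighd* at 6.82. The annotated exons include those of the membrane forms, which are long in most IgG genes and short in *Ighg2c*, so the order of *Ighg2c* among the IgG genes depends on the annotation.

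As a share of all heavy chain constant counts per kb, *Ighm* made up 50.1, 66.2 and 63.7% in Syk+/+ and 42.4, 27.8 and 33.9% in Sykdel/del. The genotypes did not overlap in this share. The count of *Ighm* itself did not differ beyond the spread, so its lower share restates the higher counts of other heavy chain genes. *Ighg2b* made up 12.6, 8.01 and 10.2% in Syk+/+ and 13.04, 26.4 and 29.2% in Sykdel/del, and *Ighg2c* made up 9.15, 7.87 and 8.14% against 8.42, 32.9 and 14.5%. The composition of the Sykdel/del libraries differed among themselves: replicate 1 held the most *Igha* (34.9%), replicate 2 the most *Ighg2c* and replicate 3 the most *Ighg2b*. *Ighd*, *Ighg1* and *Ighg3* each stayed at or under 3.45% in every library.

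**Figure D4:**
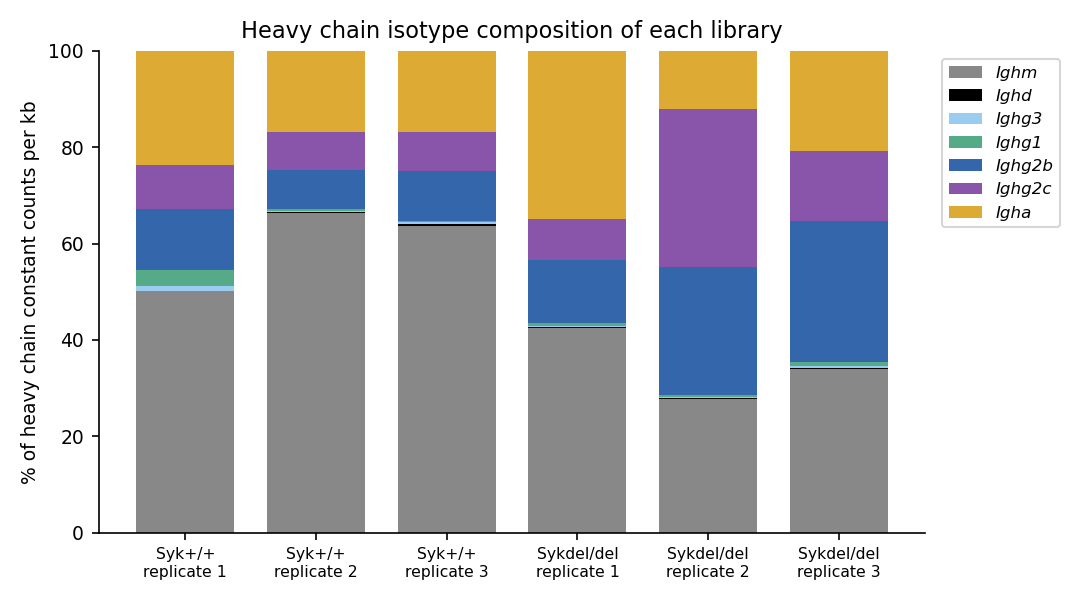
Share of each heavy chain constant gene in the summed heavy chain counts per kb of exon (vertical axis, percent) for the 3 Syk+/+ and 3 Sykdel/del libraries. *Ighm* makes up 50.1% or more of each Syk+/+ library and 42.4% or less of each Sykdel/del library, and the isotypes that fill the remainder differ between the Sykdel/del libraries.

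The members together made up 0.0822, 0.0644 and 0.0686% of the normalized counts of the Syk+/+ libraries and 0.0946, 0.142 and 0.135% of those of the Sykdel/del libraries, so they were a minor part of each. Variable segments, which are joined to these constant regions, gave sums of 319.4, 198.9 and 226.6 in Syk+/+ and 476.1, 791.3 and 695.9 in Sykdel/del over the 185 heavy chain variable rows. Every Sykdel/del library was above every Syk+/+ library in the sums of both heavy and kappa variable rows. The lambda variable rows did not separate in this way. They summed to 23.3, 8.6 and 15.6 in Syk+/+ and to 7.7, 14.6 and 51.5 in Sykdel/del. Within Sykdel/del replicate 3 a single row, *Igkv1-117*, held 36.8% of the kappa variable counts, while the top row held 8.35 to 12.9% in the other 5 libraries.

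Markers of other cells were read beside these values. Fewer cells of a type and less RNA per cell cannot be told apart in such bulk samples. Most of the monocyte markers, though not all, were abundant, and 0 of 13 tested monocyte rows passed. *Csf1r*, the receptor for CSF1, was at 7093 to 9019 in Syk+/+ and 6367 to 6998 in Sykdel/del, without overlap (log2 fold change -0.25, adjusted p = 0.90 from limma). *Ly6c2*, a surface marker of classical monocytes, was at 6288 to 7411 and 6550 to 8340. *Ms4a1*, which encodes CD20 and is a defining marker of mature B cells, was listed at 0 in all 6 libraries, as was *Fcmr*. Of 17 mature B cell genes 13 were tested and 0 passed, with a median log2 fold change of -0.06. Their sum was 173.9 to 197.4 in Syk+/+ and 166.2 to 190.4 in Sykdel/del. *Ebf1*, an early B lineage factor, and *Fcrla* had the smallest p of the list (log2 fold changes -1.32 and 1.21, adjusted p = 0.97 and 0.99 from limma). Of 8 genes of B cell precursors, *Rag1*, *Rag2* and *Vpreb2* were at 0, and 0 of 2 tested passed. These were *Il7r* and *Vpreb1*, at log2 fold changes of -0.57 and -0.28.

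Of 15 plasma cell genes all were tested and 0 passed, 11 had a log2 fold change above 0, and the median was 0.08. The sum of the list was 4281 to 4650 in Syk+/+ and 4445 to 4695 in Sykdel/del, and was mostly *Xbp1*, *Txndc5* and *Sec11c*, which other cells express too. Other genes of the list were low, and they did not all lie in the same direction. *Mzb1*, a chaperone of antibody assembly, was at 2.8, 4.8 and 0.0 in Syk+/+ and at 5.5, 15.6 and 18.7 in Sykdel/del (log2 fold change 2.20, adjusted p = 0.37 from limma). *Fkbp11*, a prolyl isomerase of secretory cells, had no read in Syk+/+ and was at 3.1 to 3.3 in Sykdel/del, 2 to 3 reads per library. *Sdc1*, the surface marker CD138, was at 7.5, 4.8 and 17.5 against 12.2, 23.0 and 23.4, and *Prdm1*, the factor of plasma cell fate, at 63.6, 56.7 and 60.9 against 76.5, 75.1 and 67.1. Neither passed (log2 fold changes 1.03 and 0.27, adjusted p = 0.88 and 1.00 from limma). *Tnfrsf17*, the receptor BCMA, was at 1.9, 1.0 and 4.6 against 2.2, 2.1 and 1.6, and *Derl3*, a factor of protein degradation at the endoplasmic reticulum, at 6.5, 9.6 and 6.5 against 7.8, 3.1 and 4.7. Whether plasma cells in the purified fraction had a part in the values of the constant genes was not tested.

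Of the 10 class switching and germinal centre genes, 8 were tested and 0 passed, with 3 log2 fold changes above 0 and 5 below. *Bcl6* and *Fas* had the smallest p of the list (log2 fold changes -0.61 and -0.18, adjusted p = 0.14 and 1.00 from limma), and both are also expressed outside B cells. Of the 13 genes of immunoglobulin receptors, 10 were tested, 0 were higher and 1 was lower. This was *Fcgr4*, which encodes the receptor that binds IgG2 subclasses, at 221.6, 431.1 and 206.7 in Syk+/+ and 66.5, 79.3 and 117.0 in Sykdel/del (log2 fold change -1.66 ± 0.26 standard error, with limma's adjusted p at 0.013). The receptor genes of polymeric antibody, *Pigr*, *Fcamr* and *Fcmr*, were listed at 0 throughout.

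Among cells that share the marrow with plasma cells, 2 of 8 tested marrow macrophage genes were lower, *C1qc* and *Cd5l* (log2 fold changes -1.72 and -1.62, adjusted p = 0.023 and 0.011 from limma), and the list summed to 694.9 to 766.8 in Syk+/+ and 340.0 to 478.9 in Sykdel/del. The granulocyte list summed to 2102 to 3082 and 2151 to 3562, and its mature granule genes were highest in replicate 1 of each genotype, with *Ngp* at 220.7 and 321.4 there and 31.7 to 103.3 elsewhere. These are also the libraries whose removal changed the calls of members. No gene of the T and NK cell, granulocyte, erythroid, plasmacytoid dendritic cell or basophil and mast cell lists passed in either direction. Of each, the pair with the smallest p was *Cd4* and *Cd3d* (log2 fold changes -1.44 and -0.77), *Ly6g* and *S100a8* (0.99 and 0.52), *Hba-a1* and *Hbb-bt* (-0.77 and -0.81), *Pacsin1* and *Ly6d* (1.37 and 0.75), and *Cpa3* and *Mcpt8* (-1.20 and -0.45). In the monocyte list it was *Csf1r* and *Itgam_2*, the second of the pair of *Itgam* rows, at 36.5 to 49.8 in Syk+/+ and 15.5 to 29.7 in Sykdel/del (log2 fold change -1.02, adjusted p = 0.31 from limma). These pairs do not stand for their lists. Log2 fold changes above and below 0 numbered 3 and 4 for T and NK cells, 8 and 1 for granulocytes and 0 and 7 for erythroid cells. They numbered 2 and 3 for plasmacytoid dendritic cells, 1 and 5 for basophils and mast cells, and 8 and 5 for monocytes. *Ly6g* and *Pacsin1* were near the floor. *Ly6g* was at 0.0 to 3.7 in Syk+/+ and 1.6 to 4.4 in Sykdel/del, and *Pacsin1* at 0.0 to 1.9 and 2.1 to 4.7. The part of the cells of these lists in the antibody transcripts was not tested.

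Likeness to the summed count of the members was the Pearson r of a row's log2 values with that sum, which was not log-transformed. The search covered 10777 rows that are not immunoglobulin genes and have a mean of at least 10. The rows most alike over the 6 libraries were *Kctd6* (r = 0.989), *Smn1* (0.983), *Ythdf1* (0.982), *Fzd1* (0.976) and *Mrps17* (0.969). With 6 points that share their libraries and so many rows searched, values of this size are a description only. None was called by limma (adjusted p of 0.56 to 1), and their log2 fold changes ran from 0.15 (*Ythdf1* and *Mrps17*) to 0.79 (*Fzd1*). *Smn1* was at 195.4, 176.7 and 170.7 in Syk+/+ and 206.2, 246.2 and 248.1 in Sykdel/del.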

How the data were processed

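RNA was sequenced by the authors from rRNA-depleted, directional libraries of bone marrow monocytes. The authors mapped reads to GRCm38/mm10 with CLC Genomics Workbench, but neither its version nor the annotation, nor how strand and multiply matching reads were handled, is given in the sources used here. What they deposited is log2(x + 1). The methods name TPM, but 100% of each library's values are integer multiples of a single step (tolerance 0.06 of a read). The quantity x is thus reads times a library factor, with no division by length. The deposited p-value column is from the authors' own comparison, its header does not say whether it was adjusted, and it was not used.

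Rows were tested if 3 or more libraries reached a normalized count of 1, which left 14023. The log2 values of the 6 libraries were fitted by genotype in limma 3.58.1 under R 4.3.3, using eBayes with a mean-variance trend. A count model was planned only for raw counts. The Benjamini-Hochberg adjustment ran over all tested rows, and the threshold was 0.05. The fit was tested on simulated data. Alternatives were 3 scalings, pseudocounts of 0.5 and 5, no filter, a mean of at least 10, no trend, a replicate block, each library left out, limma-voom on recovered reads and reads thinned to the shallowest library. Ratios within a library were compared by exact permutation over samples, and the ratio to *Ighm* was added after the data were seen. Coordinates and sequences come from GENCODE M21 (GRCm38), and lengths per kb are the union of annotated exons.

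The members and gene lists were chosen with earlier results of these data known. Named are all members, the genes of each list past the threshold or else the pair with the smallest p, the defining markers *Ms4a1*, *Sdc1*, *Prdm1*, *Mzb1*, *Csf1r* and *Ly6c2*, the 5 rows most like the summed members, and *Syk*. Other genes named (*Ngp*, *Tnfrsf17*, *Derl3*, *Xbp1*, *Txndc5*, *Sec11c*, *Fcmr*, *Pigr*, *Fcamr*, *Rag1*, *Rag2*, *Vpreb2*, *Iglc1*, *Iglc3*, *Iglc4* and *Igkv1-117*) were chosen after their values were seen. Some items within the rule are not reported here.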

Additional observations from a re-analysis of the deposited data

How the results depend on the processing

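As reported, no member passed the threshold, and none was called lower in any of the 17 alternatives. Called higher were 2 members with upper-quartile scaling and 2 without the filter on low values (*Ighg2b* and *Jchain* each time), and 1 with the replicate block (*Igha*, adjusted p = 0.014 from limma). With libraries left out the number ranged from 0 to 3. With the other 8 settings it was 0. Over the 17 alternatives the adjusted p from limma ranged from 1.48e-05 to 0.67 for *Ighg2b*, 0.0021 to 0.98 for *Ighg2c*, 0.014 to 0.73 for *Igha* and 0.025 to 0.65 for *Jchain*. The highest came without the variance trend for *Ighg2b*, *Igha* and *Jchain*. The causes were not tested.

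The counts over all rows moved too. Against 49 lower and 3 higher rows, thinned reads gave 0 and 0, limma without the trend 2 and 4, and limma-voom 34 and 0. With libraries left out 4 (without Syk+/+ replicate 2) to 63 (without Sykdel/del replicate 1) rows were lower and 0 to 29 higher, among them 9 and 1 without Syk+/+ replicate 1 and 17 and 1 without Sykdel/del replicate 2. The filter at a mean of 10 called 42 and 1 and no filter 52 and 10. Quantile normalization gave 45 and 2.

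Same-numbered samples of the genotypes did not deviate together (correlations of 0.02, 0.04 and -0.03 for numbers 1, 2 and 3), and the labels do not say what the number marks, so the replicate block is an alternative only. It called 46 rows lower and 7 higher.

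The log2 fold change of *Ighg1* ranged from -0.45 to 1.17 and that of *Ighg3* from -0.22 to 0.82 with libraries left out. The log2 ratios to *Igkc* turned sign with a pseudocount of 5 for *Igha* (0.24) and *Jchain* (0.37). With libraries left out they ranged from -1.76 to 0.14 for *Ighg1*, -0.35 to 0.88 for *Ighg2c*, -0.76 to 0.045 for *Igha* and -0.52 to 0.24 for *Jchain*, and the ratios to *Ighm* from -0.41 to 1.30 for *Ighg1* and -0.16 to 0.96 for *Ighg3*. The smallest exact p is 0.1 for 3 against 3 and for 2 against 3. *Igkc* held 1 to 5 and *Ighd* 7 to 16 reads per library, and a single read was worth most (1.56 normalized counts) in Sykdel/del replicate 3.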
